A study of Mus musculus with 8 samples.

Results

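The genes described here encode the integrins, the laminins and 4 proteins that link laminins to the rest of the basement membrane. They were found by gene symbol, as every integrin alpha or beta subunit, every laminin alpha, beta or gamma chain, the nidogens Nid1 and Nid2, perlecan (Hspg2) and agrin (Agrn). This gave 41 of the 55401 genes in the table, 26 integrin subunits, 11 laminin chains and 4 linkers. RNA was sequenced from primary mandibular fibrochondrocytes, the cells of the condylar cartilage of the jaw joint, in 4 libraries from NG2/CSPG4 knockout pups (NG2ko, NG2/CSPG4 -/-) and 4 from wild type pups (WT). The knockout was global and homozygous, from a reporter-tagged (LacZ) deletion line of the KOMP repository (TM1b-6N) that had been converted with Cre and then backcrossed for 3 generations to C57 BL/6J, and the wild type controls were C57 BL/6J. In both genotypes cells were released with collagenase from pups 10 to 14 days old by the labels and 14 days old by the sequencing methods of the study, grown without further treatment in AMEM with heat-inactivated serum, L-glutamine, penicillin and Plasmocin, and collected at passage 4. The study calls the libraries biological replicates, and whether pups were pooled is not given in the sources used here.

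Integrins are receptors that pair an alpha with a beta subunit and tie the cytoskeleton to the matrix. The alpha subunit largely sets the ligand, with separate groups for collagens, for RGD-containing proteins such as fibronectin, and for laminins. Laminins are trimers of an alpha, a beta and a gamma chain. Many, though not all, are cross-shaped and assemble into sheets at the cell surface. Nidogens, perlecan and agrin join laminins there to type IV collagen and to receptors. In cartilage, these proteins lie mainly in the pericellular matrix around each chondrocyte.

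Libraries held 60317187 to 83668935 counts. Cspg4, the targeted gene, had 9.37 ± 2.85 CPM (counts relative to the scaled library size, SD, n = 4) in NG2ko and 221 ± 17.2 CPM (SD, n = 4) in WT, a difference with p = 0.0286 by an exact two-sided permutation test, below which 4 libraries against 4 cannot go. Fibrous layer markers summed to 45595 to 54651 CPM in NG2ko and 41487 to 49809 CPM in WT. Chondrocyte markers summed to 1273 to 1556 CPM in NG2ko and 901 to 1183 CPM in WT, with 1 of the 14 at 0 in every library. The 16 myeloid markers summed to 347 to 403 CPM in NG2ko and 98.6 to 119 CPM in WT, with none at 0 in every library. The 4 Y-linked genes summed to 188 to 202 CPM in NG2ko and 0 to 0.286 CPM in WT, so that the sex of the cells, as these genes show it, and the genotype cannot be told apart. The labels name no batch.

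Of the 41 genes, 38 passed the filter on low counts and were tested with all 17190 genes. By edgeR's quasi-likelihood test, 10 of the 38 (26.3%) passed an adjusted p of 0.05, beside 12.2% of all genes tested. Lama1, Nid2 and Itgb2 were higher in NG2ko, 3 genes beside a background of 5.45% of all genes called higher. Itga5, Itga6, Itga11, Itga4, Lama2, Lamb2 and Lamc3 were lower, 7 genes beside a background of 6.75% called lower. The median log2 fold change of the 38 was -0.08, and that of all genes was 0.02. The genotypes did not overlap in CPM for 16 of the 38, 6 higher and 10 lower in NG2ko, beside 19.9% of all genes (9.81% higher and 10.1% lower). The thresholds of the study (log2 fold change beyond 1 or -1 with p under 0.05 before adjustment) were passed by 3 genes, Itgam, Itgb2 and Lama1, all higher in NG2ko, beside 3.21% of all genes (2.06% higher and 1.15% lower). Itgad, Itgae and Itgb6 were not tested. Itgb6, an epithelial integrin subunit, had counts only in NG2ko replicates 3 and 4, at 0.0985 and 0.0571 CPM. In bulk RNA, fewer cells of a type and less RNA per cell cannot be told apart.

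**Figure D1:**
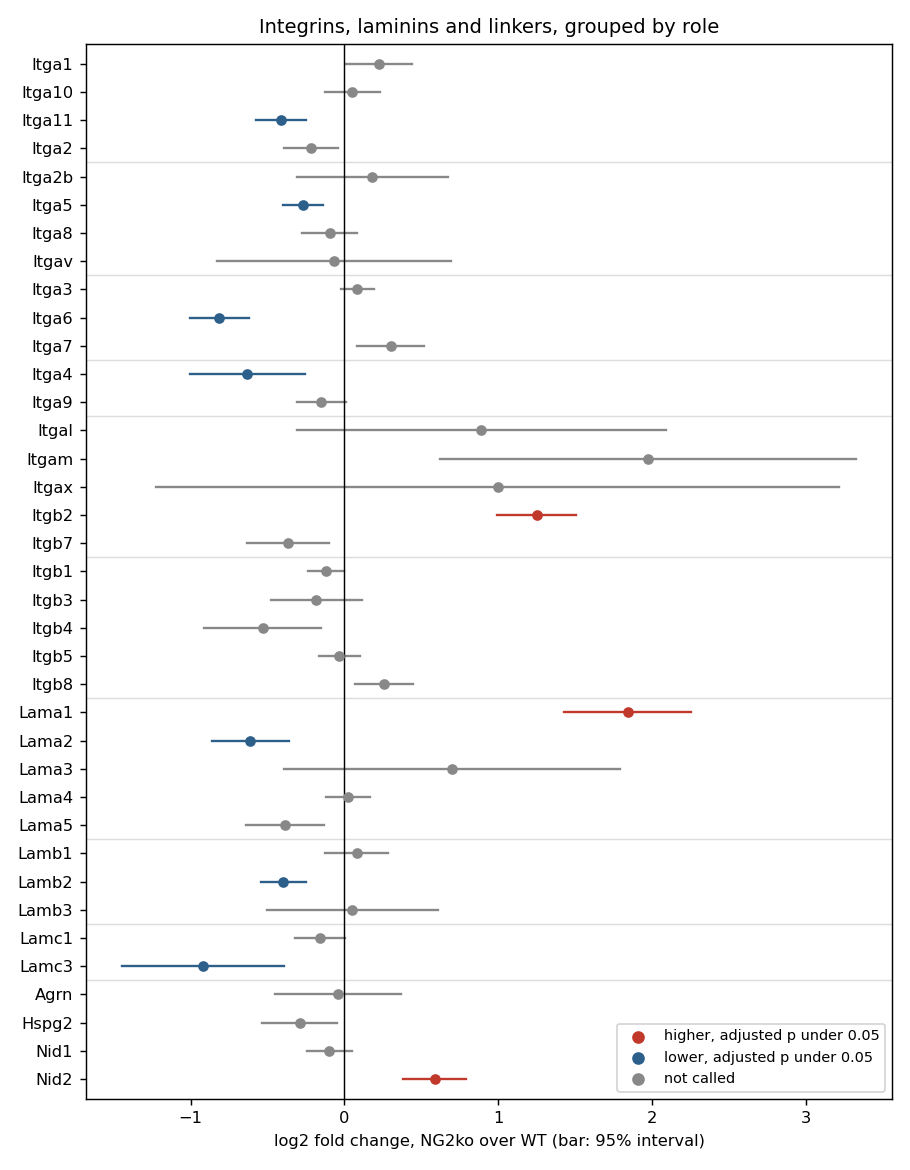
Log2 fold change (NG2ko over WT) of tested genes on the horizontal axis, grouped by role, with bars for the 95% interval of edgeR's fit. Furthest to the right stood Itgam at 1.97, which was not called, then Lama1 at 1.84 and Itgb2 at 1.25. Lamc3 at -0.92 and Itga6 at -0.81 stood to the left, while the interval of Itgav ran from -0.83 to 0.69.

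On the FPKM scale, which divides by gene length and so allows levels of different genes to be compared, the highest of the 41 were the beta subunits Itgb1 and Itgb5. Itgb1, the partner of most alpha subunits, had 228 ± 14.0 FPKM in WT and 215 ± 4.67 FPKM in NG2ko (SD, n = 4). Itgb5, which pairs with Itgav, had 199.8 ± 12.4 FPKM in WT and 201 ± 7.39 FPKM in NG2ko. In WT, Itga11 followed at 78.4 ± 5.83 FPKM. Hspg2 at 55.6 ± 6.44, Lamb2 at 51.0 ± 4.44, Nid1 at 50.8 ± 3.69 and Itga5 at 48.5 ± 2.59 FPKM came next, and within these 4 each neighbouring pair in that order differed by less than the larger SD of the pair. Lamb1 (30.1 ± 2.52), Lamc1 (27.3 ± 2.18), Lama4 (17.7 ± 0.98), Nid2 (15.8 ± 1.80) and Itgav (11.8 ± 4.13) completed the genes above 10 FPKM in WT. In all, 2 genes had at least 100 FPKM in WT, 10 had 10 to 100, 13 had 1 to 10 and 16 had less than 1. In NG2ko, Nid2 stood at rank 10 of 41 rather than 11, and Lamb2 at rank 7 rather than 5.

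**Figure D2:**
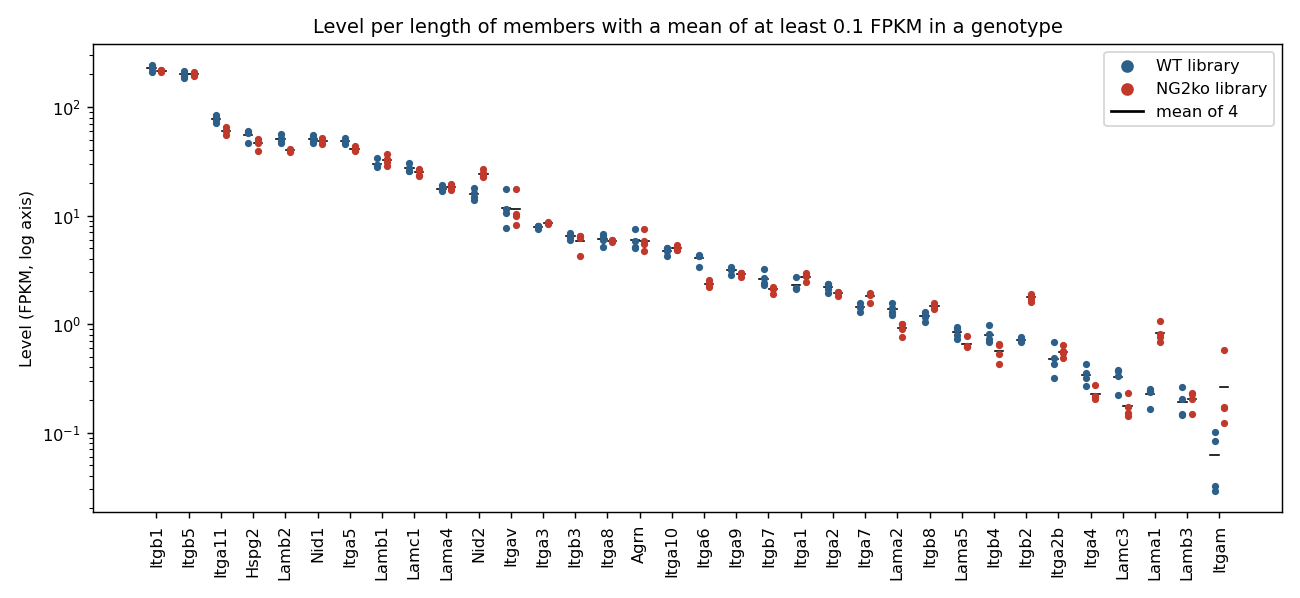
FPKM in each library, on a log axis, of genes with a mean of at least 0.1 FPKM in a genotype, ordered by their WT mean, with a line for the mean of each genotype. Itgb1 and Itgb5 lay at 199.8 to 228 FPKM by their means, and Itgam was the lowest of those shown in WT at 0.062 FPKM.

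Among the 4 collagen-binding alpha subunits, Itga11, the receptor subunit of fibroblast-like mesenchymal cells, was the most abundant and was lower in NG2ko. It had 336, 370.2, 342 and 305 CPM in NG2ko replicates 1 to 4 and 433, 488, 407 and 474 CPM in WT replicates 1 to 4. The highest NG2ko library lay below the lowest WT library, and the log2 fold change was -0.41 (SE 0.07, adjusted p = 0.00491, edgeR). Itga10, the collagen receptor subunit typical of chondrocytes, had 27.2, 29.3, 30.8 and 26.8 CPM in NG2ko and 27.4, 29.3, 24.2 and 29.2 CPM in WT, and the groups overlapped (log2 fold change 0.05, 95% interval -0.13 to 0.23). Of its exon bases, 33.5% were shared with Gm42957 on the same strand, which had a mean count of 23.6 beside 2018 for Itga10. Itga1, which binds type IV collagen in particular, had 56.5, 60.9, 56.4 and 49.1 CPM in NG2ko and 44.7, 56.7, 43.6 and 45.7 CPM in WT. Its log2 fold change of 0.23 did not pass (adjusted p = 0.169, edgeR). Without WT replicate 2, the highest of its group, it was 0.32 with an adjusted p of 0.0259 (edgeR). That was the only 1 of 20 alternative fits in which Itga1 passed. Itga2 did not pass either (log2 fold change -0.22, adjusted p = 0.111, edgeR), although every NG2ko library lay below every WT library. The FPKM of Itga11 was 21.6 to 22.6 times that of Itga1 in the NG2ko libraries and 31.2 to 37.6 times in the WT libraries.

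Of the 4 subunits that bind RGD-containing ligands, Itga5, the classical fibronectin receptor subunit, was lower in NG2ko. Its values were 222, 238, 219 and 209.8 CPM in NG2ko and 260.5, 270.5, 251 and 289.7 CPM in WT. The groups did not overlap, and the difference was the smallest of the 10 that passed (log2 fold change -0.27, SE 0.06, adjusted p = 0.0133, edgeR). Itgav, which pairs with several beta subunits to bind vitronectin and latent TGF-beta, varied more between libraries than between genotypes. It had 205, 123, 117 and 95.6 CPM in NG2ko and 127, 139, 208 and 93.4 CPM in WT, with NG2ko replicate 1 and WT replicate 3 far above the others. Its SD within genotypes was 0.47 on the log2 CPM scale, beside a median of 0.10 over all genes at or above 20 CPM. The log2 fold change of -0.07 had a 95% interval of -0.83 to 0.69, and it was 0.17 without WT replicate 3 and 0.067 without NG2ko replicate 4. Itga8, a nephronectin receptor subunit, had 47.9, 46.0, 48.2 and 46.0 CPM in NG2ko and 53.0, 56.2, 49.0 and 42.7 CPM in WT, which overlapped (log2 fold change -0.10, adjusted p = 0.527, edgeR). Itga2b, the platelet subunit, had at most 4.25 CPM in any library, where megakaryocyte and platelet markers summed to 2.92 to 4.18 CPM in NG2ko and 4.27 to 5.04 CPM in WT.

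The laminin-binding alpha subunits did not move together. Itga6, which forms laminin receptors with Itgb1 and Itgb4, was lower in NG2ko, at 25.6, 22.3, 22.8 and 23.6 CPM, than in WT, at 43.1, 44.7, 43.1 and 35.0 CPM. WT replicate 4 was the lowest of its group but still above every NG2ko library (log2 fold change -0.81, SE 0.09, adjusted p = 0.000219, edgeR). Itga3, a subunit with which the NG2 ectodomain has been described to interact, had 54.3, 52.6, 53.9 and 52.8 CPM in NG2ko and 48.2, 51.0, 50.7 and 51.7 CPM in WT. These groups did not overlap, yet the difference was 0.08 on the log2 scale and did not pass (adjusted p = 0.329, edgeR). Itga7, the main laminin receptor subunit of skeletal muscle, had 16.7, 17.2, 16.6 and 13.7 CPM in NG2ko and 13.1, 11.8, 12.9 and 14.4 CPM in WT. Its log2 fold change of 0.30 did not pass (adjusted p = 0.0754, edgeR) and passed without NG2ko replicate 4 (0.37, adjusted p = 0.0362, edgeR). Itga7 passed in 3 of 20 alternative fits in all. Skeletal muscle markers summed to 9.25 to 10.2 CPM in NG2ko and 6.83 to 12.9 CPM in WT, with 3 of 8 at 0 in every library. The ratio of Itga3 to Itga6, in FPKM, was 3.40 to 3.78 in the NG2ko libraries and 1.79 to 2.36 in the WT libraries.

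Itga4, which binds VCAM1 and fibronectin, was a low-abundance subunit that was lower in NG2ko. It had 4.22, 3.34, 3.25 and 3.10 CPM in NG2ko and 5.52, 6.79, 4.94 and 4.28 CPM in WT, so the nearest libraries of the groups were almost equal (log2 fold change -0.63, SE 0.17, adjusted p = 0.0356, edgeR). The call was lost on leaving out NG2ko replicate 2, 3 or 4 or WT replicate 1, 2 or 3, with adjusted p-values of 0.0530 to 0.0961 (edgeR). Of its exon bases, 8.04% lie antisense to Cerkl. Itga9, a tenascin receptor subunit, had 24.9, 24.8, 24.9 and 22.5 CPM in NG2ko and 24.4, 27.7, 28.6 and 27.2 CPM in WT (log2 fold change -0.15, adjusted p = 0.220, edgeR).

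The promoters of the called genes in the RefSeq promoter table that were lower in NG2ko are shown because these genes moved in the same direction. Of the 41 genes, 26 were in that table, which gives GRCm38.p6 coordinates. The runs cover only bases upstream of the start of the gene, at chr9:62677605-62677825 on the plus strand for Itga11, chr15:103366792-103367041 on the minus strand for Itga5, chr2:79255176-79255425 on the plus strand for Itga4 and chr9:108479612-108479735 on the plus strand for Lamb2. Capitals mark GC boxes (GGGCGG on either strand).
Itga11: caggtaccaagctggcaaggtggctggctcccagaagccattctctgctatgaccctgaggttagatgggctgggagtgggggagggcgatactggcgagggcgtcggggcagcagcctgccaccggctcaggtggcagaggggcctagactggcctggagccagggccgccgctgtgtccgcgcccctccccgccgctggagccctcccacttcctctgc
Itga5: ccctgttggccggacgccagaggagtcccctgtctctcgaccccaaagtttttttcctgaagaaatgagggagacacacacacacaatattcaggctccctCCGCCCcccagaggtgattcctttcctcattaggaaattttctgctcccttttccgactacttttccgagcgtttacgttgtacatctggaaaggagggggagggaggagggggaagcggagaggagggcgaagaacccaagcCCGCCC
Itga4: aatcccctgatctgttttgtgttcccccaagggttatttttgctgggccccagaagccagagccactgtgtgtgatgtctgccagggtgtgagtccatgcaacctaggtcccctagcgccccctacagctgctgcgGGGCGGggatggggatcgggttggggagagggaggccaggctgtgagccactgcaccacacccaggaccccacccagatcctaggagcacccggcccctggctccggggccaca
Lamb2: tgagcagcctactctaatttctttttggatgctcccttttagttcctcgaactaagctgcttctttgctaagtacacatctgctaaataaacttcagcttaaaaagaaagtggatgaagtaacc
The runs differed in length, at 250 bases for Itga5 and Itga4, 221 for Itga11 and 124 for Lamb2, so their motif counts do not cover equal windows. For Itga11 and Lamb2, the bases of the 250-base window nearest the RefSeq start lay inside the deposited gene and were left out. The motif counts and base content of these runs therefore do not describe their whole window. Itga5 had 2 GC boxes and Itga4 had 1, and the runs of Itga11 and Lamb2 had none. The runs were 69.2% G and C for Itga11, 55.6% for Itga5, 64.0% for Itga4 and 37.9% for Lamb2. In windows of 250 bases, searched on both strands, a GC box was present for 11 of the 26 genes (42.3%). A gene was counted if any of its promoters had the motif. Of the 32851 single promoters in the table, 32.7% had a GC box, so the 2 shares were not counted alike. The letters CCAAT were present for 19.2% of the 26 genes and in 33.8% of all promoters, and TGANTCA (the AP-1 motif) for 3.85% and in 6.75%. GGAATG (the TEAD motif) was present for 15.4% and in 12.6%, and TATAAA for 0 of the 26 genes and in 12.4% of all promoters. The median G and C content was 59.8% over the promoters of the 26 genes and 52.4% over all promoters. No motif searched was found in every one of the 4 runs.

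The subunits found mainly on leukocytes had at most 9.79 CPM in any library, and Itgb2, the beta subunit shared by several of them, was higher in NG2ko. Itgb2 had 5.71, 5.37, 6.11 and 6.26 CPM in NG2ko and 2.41, 2.61, 2.30 and 2.54 CPM in WT. The groups were well separated (log2 fold change 1.25, SE 0.12, adjusted p = 9.95e-05, edgeR). Of the 15 myeloid markers tested, 14 were also higher in NG2ko, beside 5.45% of all genes, and their part in the difference of Itgb2 was not tested. Itgam, the alpha subunit that pairs with Itgb2 on macrophages and neutrophils, had 0.918, 0.682, 3.21 and 0.942 CPM in NG2ko and 0.488, 0.595, 0.171 and 0.202 CPM in WT (log2 fold change 1.97, SE 0.60, adjusted p = 0.0652, edgeR). NG2ko replicate 3 stood far above the other NG2ko libraries. Of the exon bases of Itgam, 68.7% were shared with Gm49368 on the same strand, which had 0 counts in NG2ko replicate 3 and 165, 193 and 241 counts in the other NG2ko replicates, so the split of reads between these 2 genes is uncertain. Summed, they had 2.97, 3.54, 3.21 and 4.38 CPM in NG2ko and 1.01, 1.11, 0.800 and 0.436 CPM in WT, without overlap (p = 0.0286, exact permutation, two-sided). That p is unadjusted and the lowest that 4 libraries against 4 can give, and 19.9% of all genes tested did not overlap. Singly, neither gene passed (adjusted p = 0.0652 for Itgam and 0.290 for Gm49368, edgeR). Itgal, a lymphocyte subunit, had at most 0.656 CPM and Itgax, a dendritic cell subunit, at most 0.282 CPM in any library. Itgb7, which pairs with Itga4 and Itgae, did not pass, with 6.60, 6.50, 6.58 and 5.68 CPM in NG2ko and 8.29, 7.44, 9.79 and 7.16 CPM in WT (log2 fold change -0.37, adjusted p = 0.0782, edgeR).

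None of the 5 other beta subunits tested passed. Itgb1 had 969, 977, 971 and 917 CPM in NG2ko and 1047, 1114, 1039 and 963 CPM in WT, and the groups overlapped only through WT replicate 4 (log2 fold change -0.12, 95% interval -0.24 to -0.00, adjusted p = 0.185, edgeR). Itgb5 had 746, 822, 781 and 762 CPM in NG2ko and 776, 805, 734 and 868 CPM in WT, with a 95% interval of the log2 fold change of -0.16 to 0.10. Itgb3, the vitronectin receptor subunit of osteoclasts and platelets, had 39.9, 42.0, 41.7 and 26.9 CPM in NG2ko and 43.3, 46.1, 41.4 and 40.03 CPM in WT, with NG2ko replicate 4 well below the rest. Itgb4, the hemidesmosome subunit that pairs with Itga6, differed by -0.53 on the log2 scale (adjusted p = 0.0745, edgeR) and Itgb8, which binds latent TGF-beta with Itgav, by 0.26 (adjusted p = 0.0818, edgeR). Both had groups without overlap and did not pass.

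**Figure D3:**
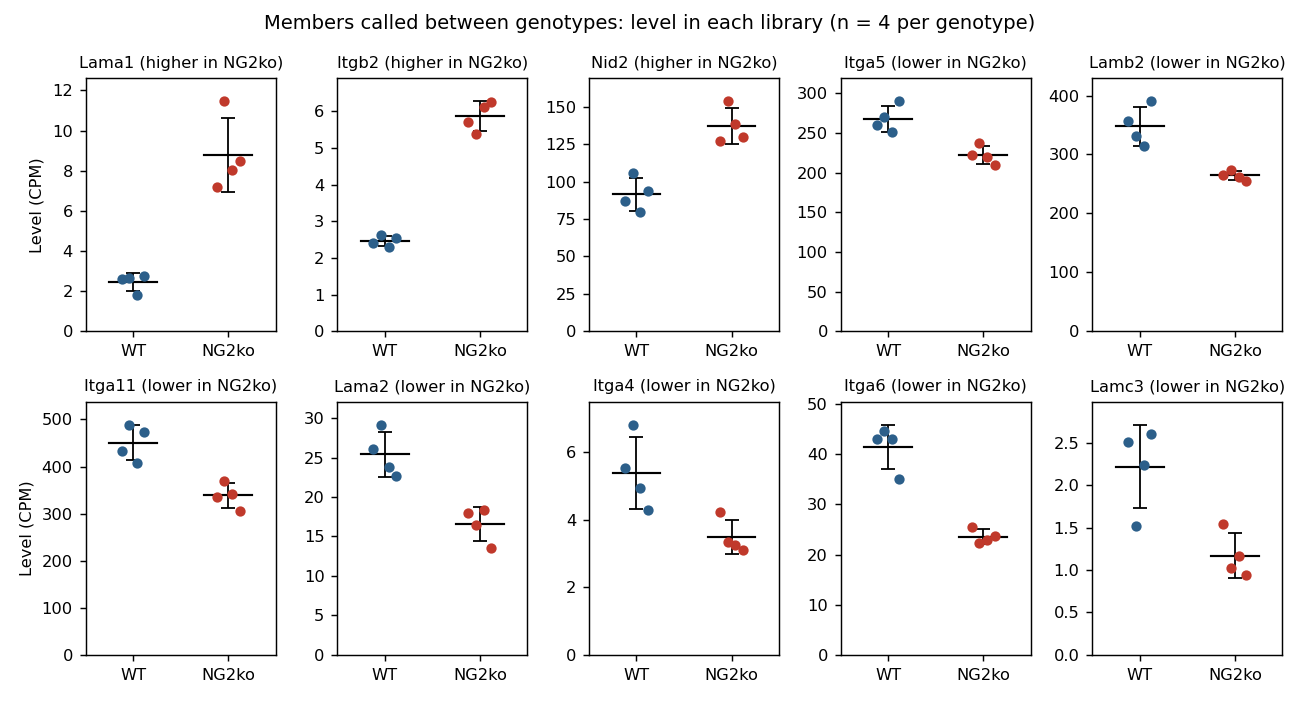
CPM (vertical axis) of the 10 genes that passed an adjusted p of 0.05, by genotype, with a point for each library, a line for the mean and error bars for the SD (n = 4). Lama1, at 7.19 to 11.4 CPM in NG2ko and 1.79 to 2.77 CPM in WT, had the widest separation in fold, and the 2 groups of Lamc3 met at 1.52 and 1.54 CPM.

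The laminin alpha chains held a rise and a fall beside an even main chain. Lama1, the alpha chain of embryonic basement membranes, had 7.19, 11.4, 8.06 and 8.48 CPM in NG2ko and 2.58, 2.67, 1.79 and 2.77 CPM in WT. Every NG2ko library lay far above every WT library, and the mean was 3.58 times as high by the fitted fold (log2 fold change 1.84, SE 0.19, adjusted p = 0.000169, edgeR). Lama2, the alpha chain of muscle and nerve, had 18.0, 16.5, 18.4 and 13.6 CPM in NG2ko and 26.0, 29.1, 23.8 and 22.7 CPM in WT, without overlap (log2 fold change -0.61, SE 0.11, adjusted p = 0.00593, edgeR). Lama4, the chain of vessel and mesenchymal basement membranes, had 236, 261, 253 and 224 CPM in NG2ko and 231, 258, 224 and 244 CPM in WT, and its 95% interval ran from -0.12 to 0.17 on the log2 scale. Lama5, a broadly expressed chain, had 9.58, 7.95, 7.74 and 7.66 CPM in NG2ko and 11.4, 10.2, 9.29 and 12.1 CPM in WT (log2 fold change -0.39, adjusted p = 0.0555, edgeR). It passed without NG2ko replicate 1 (-0.47, adjusted p = 0.0371, edgeR) and without WT replicate 3 (-0.46, adjusted p = 0.0355, edgeR). Lama5 passed in 4 of 20 alternative fits in all. Lama3, an epithelial chain, had at most 0.875 CPM in any library. Endothelial markers summed to 2.41 to 4.17 CPM in NG2ko and 2.86 to 3.71 CPM in WT, epithelial markers to 2.76 to 4.48 and 1.94 to 3.69 CPM, and Schwann and glial markers to 7.38 to 7.79 and 2.91 to 5.61 CPM. Of the 7 Schwann and glial markers, 4 stayed under 1 CPM in every library. Of the 4 that were tested, 0 were called, beside 12.2% of all genes. Mural and smooth muscle markers, of which 3 of 7 tested were lower in NG2ko beside 6.75% of all genes, summed to 3881 to 4076 CPM in NG2ko and 3851 to 4137 CPM in WT. The part of these cell types in the laminin differences was not tested.

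In shares of the summed FPKM of the alpha chains, Lama4 made up 88.3 ± 0.35% in NG2ko and 87.8 ± 0.58% in WT (SD, n = 4). Lama1 made up 3.96 ± 0.68% in NG2ko and 1.11 ± 0.17% in WT, Lama2 4.36 ± 0.47% and 6.76 ± 0.57%, and Lama5 3.17 ± 0.44% and 4.19 ± 0.48%. Lama1 thus reached a level near that of Lama2 in NG2ko, with a ratio of 0.686 to 1.19, and stayed at 0.128 to 0.209 of it in WT. The summed alpha chains were at 20.96 ± 1.29 FPKM in NG2ko and 20.2 ± 1.13 FPKM in WT.

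Of the beta chains, Lamb2 was lower in NG2ko and Lamb1 was not called. Lamb2, the chain of mature basement membranes, had 265, 274, 262 and 255 CPM in NG2ko and 356, 331, 315 and 390.1 CPM in WT (log2 fold change -0.40, SE 0.07, adjusted p = 0.0034, edgeR). The 4 NG2ko libraries lay close together and below all WT libraries. Lamb1, the other major chain, had 339, 406, 364 and 304 CPM in NG2ko and 324, 376, 306 and 330.2 CPM in WT (log2 fold change 0.08, 95% interval -0.12 to 0.29). Lamb2 made up 54.9 ± 2.35% of the beta chain FPKM in NG2ko and 62.8 ± 2.94% in WT, and its ratio to Lamb1 was 1.101 to 1.37 in NG2ko and 1.44 to 1.93 in WT. Lamb3, a chain of epithelial laminin, had 1.08, 1.69, 1.65 and 1.47 CPM in NG2ko and 1.95, 1.53, 1.09 and 1.12 CPM in WT.

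Among the gamma chains, Lamc1, found in most laminins, made up 97.8 ± 0.17% of the FPKM in NG2ko and 97.0 ± 0.58% in WT. It had 243, 211, 239 and 211 CPM in NG2ko and 256, 281, 235 and 239.6 CPM in WT (log2 fold change -0.16, adjusted p = 0.198, edgeR). Lamc3, a rare chain, was lower in NG2ko, at 1.54, 1.02, 1.17 and 0.942 CPM against 2.51, 1.52, 2.24 and 2.60 CPM in WT (log2 fold change -0.92, SE 0.24, adjusted p = 0.0304, edgeR). Its groups overlapped through WT replicate 2, and the call was lost on leaving out NG2ko replicate 2, 3 or 4 or WT replicate 1, 3 or 4, with adjusted p-values of 0.0616 to 0.0837 (edgeR).

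**Figure D4:**
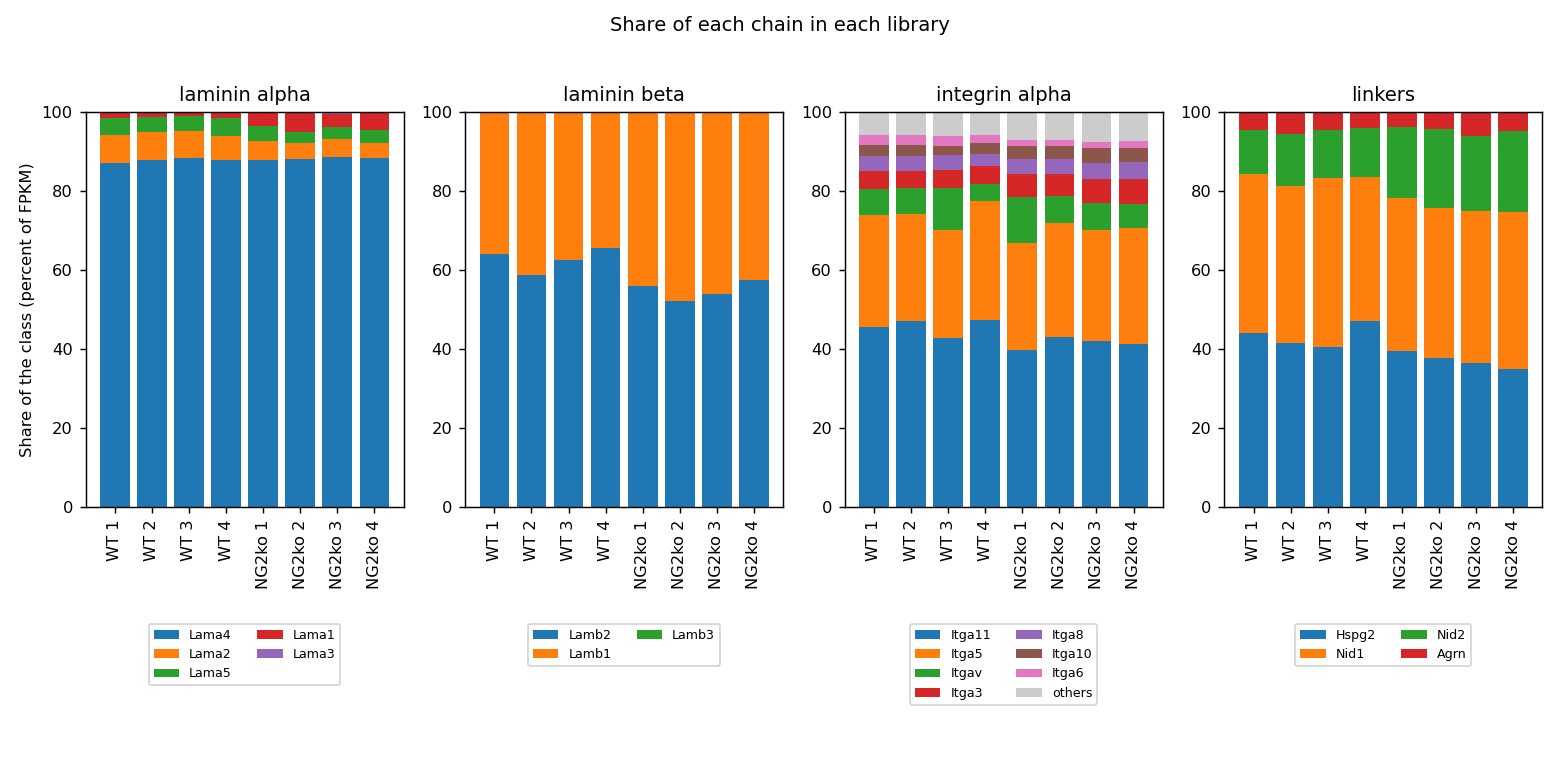
Share of each chain in the summed FPKM of its class (percent, vertical axis) in each of the 8 libraries, for laminin alpha and beta chains, integrin alpha subunits and the linkers. Nid2 took 17.9 to 20.5% of the linkers in the NG2ko libraries and 11.3 to 13.2% in the WT libraries, while Lama4 took 87.0 to 88.6% of the alpha chains in all libraries.

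Among the linkers, Nid2 was higher in NG2ko and its paralog Nid1 was not called. Nid2 had 127, 153, 138 and 129.7 CPM in NG2ko and 86.7, 105, 79.6 and 93.7 CPM in WT. The groups did not overlap, and the fitted fold was 1.502 (log2 fold change 0.59, SE 0.09, adjusted p = 0.00228, edgeR). Of the exon bases of Nid2, 8.45% lie antisense to Rtraf, which had a mean count of 10230 beside 8296 for Nid2. Whether strand was used in counting is not given in the sources used here. Nid1 had 369.9, 395, 372 and 339 CPM in NG2ko and 412, 428, 374 and 368 CPM in WT, which overlapped (log2 fold change -0.10, adjusted p = 0.397, edgeR). The FPKM of Nid1 was 1.92 to 2.17 times that of Nid2 in NG2ko and 2.93 to 3.54 times in WT. Hspg2, the large heparan sulfate proteoglycan of the pericellular matrix, had 798, 828, 749 and 629 CPM in NG2ko and 963, 947, 754 and 1012 CPM in WT. Its log2 fold change of -0.29 did not pass (adjusted p = 0.121, edgeR). Without WT replicate 3, the lowest of its group, it was -0.38 with an adjusted p of 0.0258 (edgeR). That was the only 1 of 20 alternative fits in which Hspg2 passed. Agrn, which binds laminins and dystroglycan, had 47.9, 59.6, 76.8 and 54.3 CPM in NG2ko and 60.5, 79.1, 53.3 and 52.4 CPM in WT, and its log2 fold change ran from -0.19 to 0.11 over the fits that left out a library.

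Chondrocyte markers were higher in NG2ko for 10 of the 12 tested and lower for 0, beside 5.45% and 6.75% of all genes. Of the 11 fibrous layer markers tested, 5 were higher and 1 was lower. The part of either set of markers in the differences of Lama1, Nid2 and the called integrin subunits was not tested.

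Other genes of the same structures were taken from lists and counted in the same edgeR fit. Over all genes tested, 5.45% were called higher and 6.75% lower, and the median log2 fold change was 0.02. Of 24 other basement membrane genes tested, 5 were higher and 8 lower in NG2ko (54.2% called), with a median log2 fold change of -0.25. Those lower included Ntn4, a netrin that binds laminin gamma chains, at 10.7 ± 0.94 CPM in NG2ko and 20.04 ± 0.76 CPM in WT, Tinagl1 (log2 fold change -0.75), Efemp1 (-0.50), and the type IV collagen chains Col4a5 (-0.48) and Col4a2 (-0.42). Those higher were Egfl6 (0.996), Smoc1 (0.90), Col15a1 (0.75), Fbln1 (0.69) and Smoc2 (0.19). Of 21 integrin ligands tested, 1 was higher and 8 were lower (42.9% called), with a median of -0.19. Fn1, the ligand of Itga5, had 24041 ± 2013 CPM in NG2ko and 31271 ± 2314 CPM in WT (log2 fold change -0.38, adjusted p = 0.00828, edgeR), and Vcam1, a ligand of Itga4, 181 ± 4.67 and 207 ± 3.46 CPM (-0.19, adjusted p = 0.0151, edgeR). Ibsp, a bone sialoprotein, was the ligand that was higher (1.09). Of 28 cytoplasmic integrin adaptors tested, 0 were higher and 9 lower (32.1% called), with a median of -0.16, among them Tns1 (-0.56), Apbb1ip (-0.53) and Sh3kbp1 (-0.36). Their summed level was 7278 to 7763 CPM in NG2ko and 7902 to 8507 CPM in WT. Of 19 genes of dystroglycan, its glycosylation and other laminin receptors, 1 was higher (Rpsa, 0.20) and 1 lower (10.5% called), with a median of -0.10, and of 6 tetraspanins and partners 1 was lower (Cd81, -0.22, 16.7% called).

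**Figure D5:**
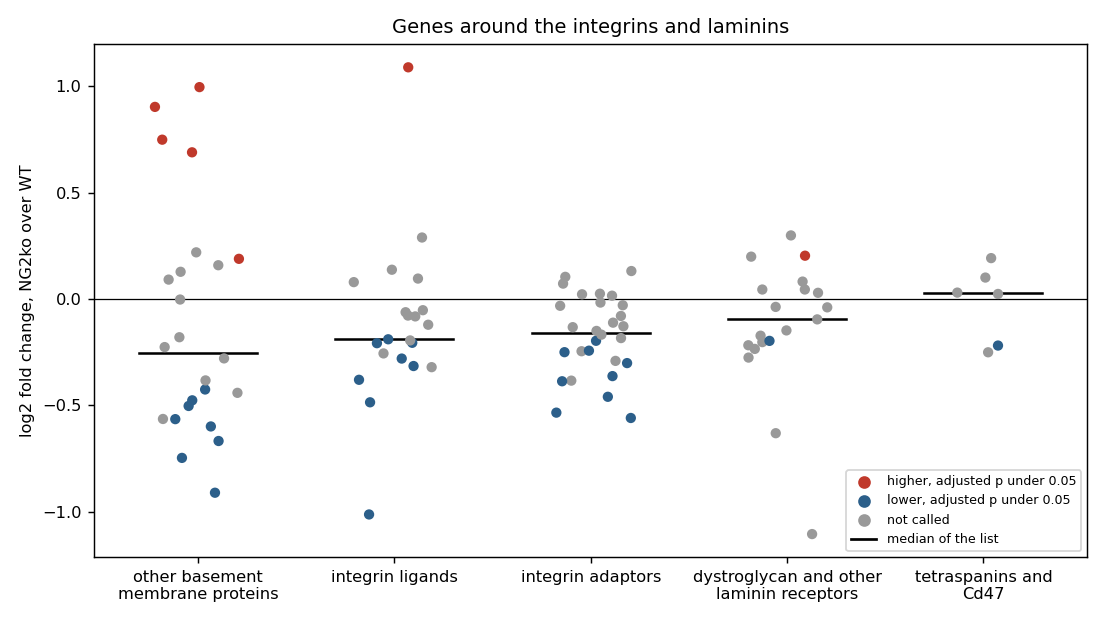
Log2 fold change (NG2ko over WT) of each tested gene in 5 lists of related genes, with called genes coloured by direction and a line for the median of each list. None of the 28 integrin adaptors was called higher and 9 were called lower, while 5 of the 24 other basement membrane genes were called higher and 8 lower, beside 5.45% and 6.75% of all genes.

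Itga11 and Lamb2 lie on chromosome 9, as does Cspg4, at distances of 5.78 and 51.6 Mb from it. Within 20 Mb of Cspg4, 52 of 376 tested genes (13.8%) passed, beside 12.2% of all genes. Itga1 and Itga2 lie 21 kb apart on chromosome 13 and had log2 fold changes of 0.23 and -0.22, neither of which passed.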

How the data were processed

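The submitters' processing notes name FastQC, HISAT2, StringTie and edgeR, without versions. By the methods of the study, stranded poly(A) libraries were mapped to the mouse genome of Ensembl release 101. The table deposited by the authors holds whole-number counts, not normalized, and FPKM per gene and library. A count of 0 has an FPKM of 0.0001. The counter and its use of strand are not given in the sources used here. Groups and replicate numbers came from the labels, and nothing there separates cultures from animals, so p-values measure the spread between these libraries.

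Counts were scaled by TMM, filtered by filterByExpr (count minimum 10) and tested with edgeR 4.0.16 under R 4.3.3 (quasi-likelihood, robust prior, genotype only), with Benjamini-Hochberg adjustment over 17190 genes and calls at an adjusted p under 0.05. The SE of a fold change was derived from its size and the F statistic of the test (size over root F). CPM served for comparisons between genotypes and FPKM between genes. Single values were compared by exact permutation tests. Alternatives used each library left out, a replicate block, other filters and scalings, DESeq2 1.42.0, limma 3.58.1 (voom, and trend on log2 FPKM with pseudocounts of 0.1, 1 and 0.01), no chromosomes X and Y, and an ordinary prior. The scripts were checked on simulated data, where 34.3% of 99 genes changed 1.5-fold and 73.2% of 97 changed 2-fold were recovered. Only these genes were changed among the 16777 tested there, so the shares recovered need not hold for the real data. Of the 116 calls in that simulation, 11 were false. Promoters came from the RefSeq table (GRCm38.p6). Of the 41 genes, 38 had coordinates identical to GENCODE annotation of GRCm38. Genes described with values in every library were those called, those past the study's thresholds and the 3 of highest mean FPKM in each role group. The set and all lists were chosen with earlier results of these data known. Plots used matplotlib 3.10.9 (Python 3.11.15). Single-gene results for some genes are not reported here.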

Additional observations from a re-analysis of the deposited data

Results flagged for a closer look

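In 8 of 76 groups of 4 libraries, 1 library lay far from the other 3 by Dixon's criterion, where chance alone gives about 3.8. NG2ko replicate 4 was the low library for 4 genes. It had 22.5 CPM for Itga9 (others 24.8 to 24.9), 5.68 CPM for Itgb7 (others 6.50 to 6.60), 917 CPM for Itgb1 (others 969 to 977) and 26.9 CPM for Itgb3 (others 39.9 to 42.0). NG2ko replicate 3 had 3.21 CPM for Itgam (others 0.682 to 0.942), and NG2ko replicate 1 had 9.58 CPM for Lama5 (others 7.66 to 7.95). WT replicate 2 had 56.7 CPM for Itga1 (others 43.6 to 45.7), and WT replicate 4 had 35.0 CPM for Itga6 (others 43.1 to 44.7).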

How the results depend on the processing

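Itga5, Itga6, Itga11, Lama2, Lamb2, Lama1, Itgb2 and Nid2 passed under all 20 alternatives. Itga4 passed in 11 and Lamc3 in 10. Of the 38 tested genes, DESeq2 called 16 (5 higher, 11 lower), Itga7, Itgam, Itgb4, Itgb7 and Lama5 among those added, beside 16.3% of all genes, and no scaling beyond library size called 12, 5 of them higher, beside 12.9% of all genes. The cause was not tested. At an FPKM pseudocount of 1, 0 genes of the set passed the study's thresholds, since a pseudocount compresses low levels. Leaving out each library gave 8 to 11 called genes of the set, 3 to 4 higher and 5 to 8 lower, beside 8.31 to 11.2% of all genes. Over the whole table, these fits called 613 to 900 genes higher, lowest without NG2ko replicate 3, and the cause was not tested. Of all called genes, 44.7% were higher in the fit reported, 57.2% without scaling and 56.3 to 56.4% with FPKM.

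Directions turned only where the log2 fold change was small. On leaving out each library, Lama4 ranged from -0.011 to 0.063, Itgb5 from -0.073 to 0.0084, Lamb3 from -0.064 to 0.24, Itgav from -0.34 to 0.17, Agrn from -0.19 to 0.11 and Itga10 from -0.0097 to 0.082. Itgb5 was 0.010 without scaling and 0.0083, 0.0082 and 0.0083 with FPKM pseudocounts of 0.1, 1 and 0.01. The causes were not tested.

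With the replicate number as a block, the same 10 genes of the set passed, as did 1815 genes in all (2097 without the block). Libraries of the same number correlated at 0.000995 to 0.0441 in their deviations from the genotype means, and libraries of different numbers at -0.0297 to 0.0158. The highest values were thus between libraries of the same number. All values were small, and the numbers were not taken as pairing.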
